A study of Mus musculus with 2 samples.

Results

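The RNA of 3 genes that mark progenitor cells, Nes, Sox2 and Sox9, was measured in mouse embryo fibroblasts (MEFs). The genes were taken by name, but with earlier results of these data known. Each was read over its annotated exons, its introns and the 10 kb on either side, on both strands. They are 3 of the 1718 annotated genes that lie wholly inside the stretches of the mm9 genome that the deposited tracks cover, and 3 of the 688 protein-coding genes among them with at least 10 reads over exons. The JXO library came from a cross of a JF1 mother and a TgOG2 (OG2) father, and the OXJ library from the reciprocal cross of an OG2 mother and a JF1 father. JF1 is an inbred line of the molossinus subspecies, and OG2 is a transgenic line of domesticus origin in which a promoter fragment of Pou5f1 drives EGFP, so the embryos of both crosses inherited the transgene from 1 parent. In either cross the cells were female, were derived from 13.5 dpc (days post coitum) tissue without head and internal organs, and were used at early passage. There was 1 library per cross, so no test between JXO and OXJ was possible; all intervals given here are 95% and cover counting error only, and differences of cross, embryo, culture and library cannot be told apart.

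Nes encodes nestin, an intermediate filament protein that is abundant in dividing neural stem cells and in the progenitors of muscle, and that is lost when these cells differentiate. Sox2 and Sox9 encode transcription factors with an HMG box, a domain that binds the minor groove of DNA. Sox2, of the SoxB1 group, maintains neural progenitors and pluripotent cells. Sox9, of the SoxE group, is required for cartilage, for the testis and for neural stem cells and neural crest. Nestin and vimentin filaments are found together in several mesenchymal cell types in culture.

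Sequence was taken from 2 places. The first set is the 250 bases of mm9 before each annotated start, shown because cover of the gene strand came to within a few bases of the start, or past it, for Nes and Sox2. The first covered base of Nes was the start itself in both libraries, with unbroken cover 35 bases into the window in JXO and 40 bases in OXJ. That of Sox2 lay 5 bases after the start in JXO and at the start in OXJ, with 13 bases of the window covered in OXJ. That of Sox9 lay 17 bases after the start in JXO and 176 bases after it in OXJ. All 3 genes lie on the (+) strand, and the windows are chr3:87774750-87774999 for Nes, chr3:34548677-34548926 for Sox2 and chr11:112643288-112643537 for Sox9. Capitals mark every match, on either strand, to CCAAT (the CCAAT box) or GGGCGG (the GC box); TATAAA (the TATA box) and AACAAT (a Sox binding motif) were also searched on both strands.
Nes upstream: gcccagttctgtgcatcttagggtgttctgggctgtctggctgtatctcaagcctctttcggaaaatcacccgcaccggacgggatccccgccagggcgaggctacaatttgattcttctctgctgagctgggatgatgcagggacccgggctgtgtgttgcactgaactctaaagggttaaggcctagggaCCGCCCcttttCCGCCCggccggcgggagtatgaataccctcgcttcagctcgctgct
Sox2 upstream: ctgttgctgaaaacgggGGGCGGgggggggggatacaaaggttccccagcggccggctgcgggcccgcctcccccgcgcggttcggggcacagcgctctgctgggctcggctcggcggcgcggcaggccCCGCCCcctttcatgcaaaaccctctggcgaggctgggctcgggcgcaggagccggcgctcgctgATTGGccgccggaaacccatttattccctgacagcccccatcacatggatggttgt
Sox9 upstream: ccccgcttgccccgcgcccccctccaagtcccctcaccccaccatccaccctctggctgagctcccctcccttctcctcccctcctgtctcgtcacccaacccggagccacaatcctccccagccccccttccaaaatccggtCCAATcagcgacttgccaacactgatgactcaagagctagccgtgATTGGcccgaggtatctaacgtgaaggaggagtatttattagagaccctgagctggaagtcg

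The Nes window held 2 GC boxes, which began 58 and 47 bases before the start, and no CCAAT box. The Sox2 window held 2 GC boxes, 233 and 121 bases before the start, and 1 CCAAT box at 56 bases. The Sox9 window held 2 CCAAT boxes, at 107 and 62 bases, and no GC box. None of the 3 windows held TATAAA or AACAAT. In the same windows of 22367 protein-coding genes, CCAAT was present in 35.0%, GGGCGG in 39.6%, TATAAA in 12.3% and AACAAT in 9.13%, so these matches are common and are given as a description of the letters. The GC content of the windows was 58.8% for Nes, 70.8% for Sox2 and 60.8% for Sox9.

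The second set is a repeat inside the last exon of Nes, shown because the depth of both libraries dipped there. Its copies lie side by side in the coding part, at chr3:87780491-87780621 and chr3:87780623-87780753 of mm9, and match at 130 of 131 bases. The capital marks the base that differs, G42A, with positions counted from 1 at the 5′ end of the copy and the base of copy 1 given first.
Nes repeat, copy 1: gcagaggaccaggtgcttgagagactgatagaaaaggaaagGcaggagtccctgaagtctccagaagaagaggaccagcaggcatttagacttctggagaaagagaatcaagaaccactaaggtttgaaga
Nes repeat, copy 2: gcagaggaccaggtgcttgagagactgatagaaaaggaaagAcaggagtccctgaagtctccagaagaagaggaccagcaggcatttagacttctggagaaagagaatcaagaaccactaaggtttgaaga

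The tracks gave the read depth at each base, scaled by the authors to 50000000 aligned reads, and a level below is the mean scaled depth per base over the exons, so that genes of different length can be compared. A read added 0.652 scaled depth to each of its bases in JXO and 0.579 in OXJ. The tracks held 5837225 reads in JXO and 5785447 in OXJ, which is 7.61% and 6.70% of the aligned reads. Of 685 protein-coding genes with reads, 660 in JXO (96.4%) and 657 in OXJ (95.9%) had more signal on their own strand. The median protein-coding gene had a level of 14.8 in JXO and 9.82 in OXJ, and the median log2 ratio of JXO over OXJ was 0.46 in the deposited values. This median comes from the 688 genes inside the tracks only, and whether it holds for other genes was not tested. Ratios below are given with the median gene set to 0, unless they are called deposited ratios. Both levels had 0.1 scaled depth added. On this scale 10 of 688 genes (1.45%) were more than 2-fold higher and 27 (3.92%) more than 2-fold lower in JXO, 5.38% together, and the middle 95% of genes lay between -1.21 and 0.80. Of the 3 progenitor genes, 0 lay past 2-fold.

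Nes was abundant in MEFs of both crosses, while Sox2 and Sox9 gave a low signal in both. Nes had a level of 339.9 (335 to 345) in JXO and of 155 (151 to 158) in OXJ, and so held rank 35 in JXO and 46 in OXJ among the 688 genes. Sox9 had 2.96 (2.39 to 3.63) in JXO and 3.53 (2.94 to 4.20) in OXJ, at ranks 502 and 465. Sox2 had 1.27 (0.82 to 1.89) in JXO and 1.22 (0.80 to 1.79) in OXJ, at ranks 551 and 553. The order Nes, Sox9, Sox2 was the same in both libraries, and within each library no interval overlapped that of the neighbour in this order. In such bulk RNA, fewer cells that express a gene and less RNA per cell cannot be told apart.

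**Figure D1:**
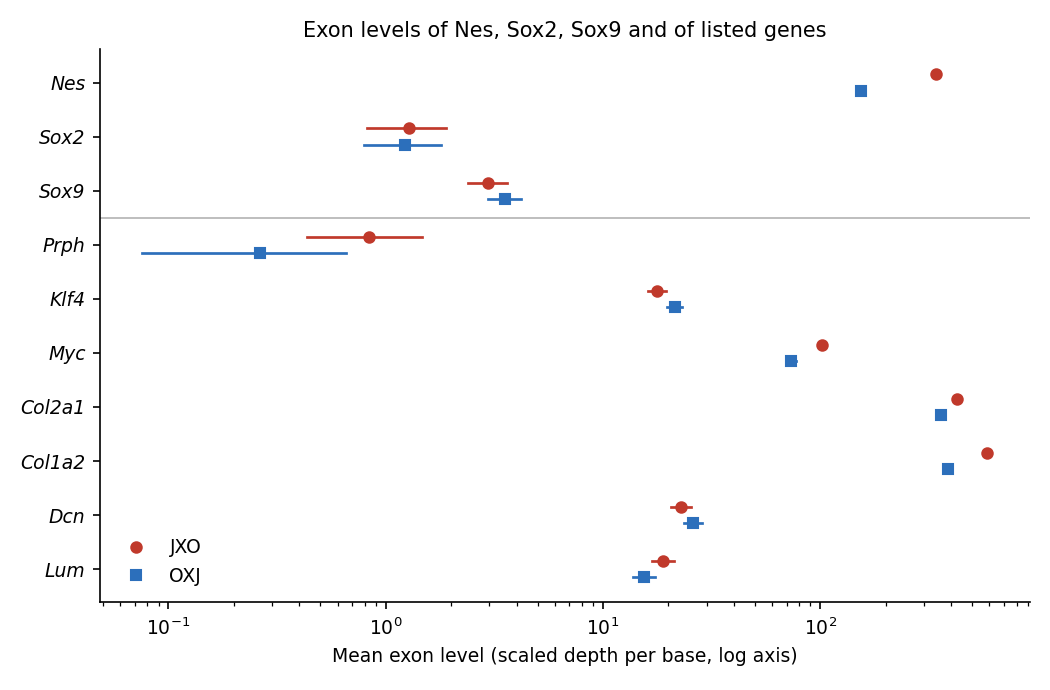
Mean exon level (scaled depth per base, log axis) of Nes, Sox2 and Sox9, above the line, and of the other listed genes that lay wholly inside the stretches and had at least 10 reads; circles are JXO, squares OXJ, and bars 95% counting intervals. Nes lies at 339.9 in JXO and 155 in OXJ, below Col2a1 and Col1a2 in both libraries, and Sox2 lies at 1.27 and 1.22.

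Between the crosses the 3 genes did not move together. Nes was higher in JXO, with a log2 ratio of 0.67 (0.64 to 0.71), and ranked 29 of 688 from the highest ratio. In the deposited values the ratio of Nes was 2.20-fold, or 1.14 on the log2 scale (1.10 to 1.17), and thus past 2-fold before the median gene was set to 0. Sox9 was lower in JXO, with a log2 ratio of -0.71 (-1.12 to -0.32) and rank 627, while its deposited ratio was -0.24 with an interval on both sides of 0 (-0.65 to 0.15). Sox2 had a log2 ratio of -0.41, and its interval of -1.27 to 0.45 covered a 2-fold lower level as well as an equal one. Its sign turned with the scale, since the deposited ratio was 0.05 (-0.81 to 0.91). The intervals of Nes and Sox9 did not overlap. The choice of scale cannot change this, since it shifts the ratios of all genes equally. Of all genes, 1.45% were more than 2-fold higher and 3.92% more than 2-fold lower, and all 3 ratios lay inside the middle 95% of genes.

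**Figure D2:**
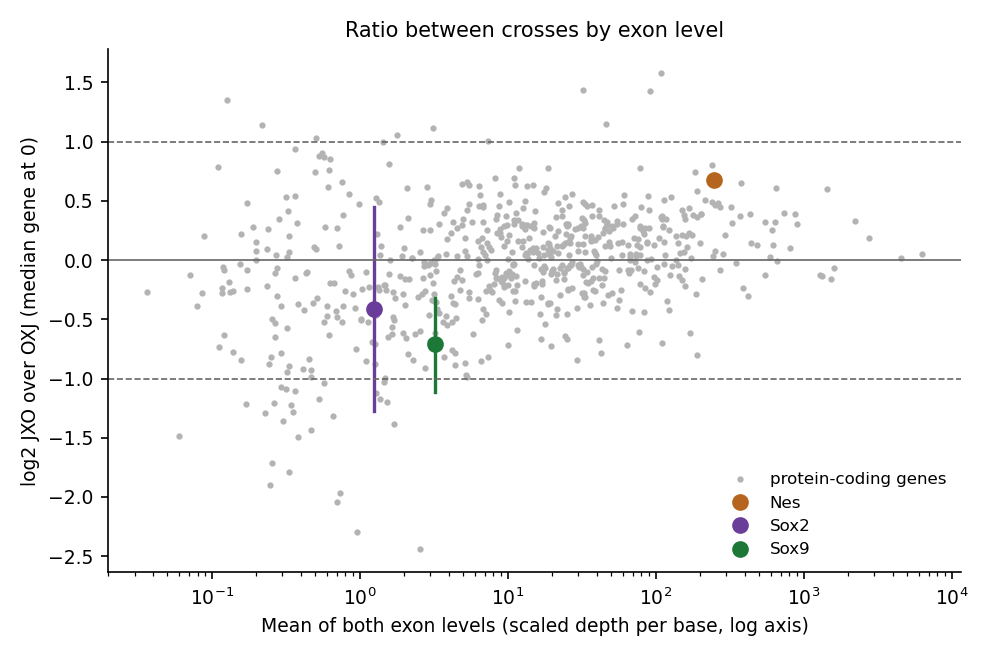
Log2 ratio of JXO over OXJ (median gene at 0) against the mean of both exon levels (log axis) for 688 protein-coding genes (grey), with Nes, Sox2 and Sox9 in colour, bars for their 95% counting intervals and dashed lines at 2-fold. Nes lies at 0.67, Sox2 at -0.41 and Sox9 at -0.71, all between the dashed lines.

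The ratio varied with level, so each gene was also set beside genes whose mean level lay within 2-fold of its own. Around Nes there were 55 such genes with a median log2 ratio of 0.20, and 2 of them had a higher ratio than Nes. Around Sox2 there were 81 genes with a median of -0.27, and 48 had a higher ratio. Around Sox9 there were 111 genes with a median of -0.14, of which 99 had a higher and 12 a lower ratio. The part of this trend in the ratios of the 3 genes was not tested.

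The genes nearest in level in both libraries were named by the smallest distance between the pairs of log2 levels. For Nes these were Rab6 (318 in JXO and 164 in OXJ), which encodes a Golgi GTPase, Slc38a4 (339 and 141), an amino acid transporter, and Rpl22 (329 and 173), a protein of the large ribosomal subunit. For Sox9 they included Hspb2 (3.05 and 3.40), a small heat shock protein, and Atg16l2 (2.75 and 3.22), a relative of the autophagy protein Atg16l1. For Sox2 they were Stard9 (1.23 and 1.22), a kinesin, Gm3200 (1.29 and 1.28) and Ganc (1.45 and 1.24), an alpha-glucosidase. These lists rest on 2 libraries and describe likeness of level only.

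Nes (chromosome 3, 87775000 to 87784373) has 4 exons of 6416 bases in all, of which 5592 are coding. Its exons drew 33458 reads in JXO and 17127 in OXJ, or 521 and 267 reads at a base on average, and they were covered over 100% and 99.98% of their bases. Besides the bases before the start given above, read cover ran without a gap to 22 bases past the annotated end in JXO and to 0 bases past it in OXJ. The signal of both libraries thus began and stopped close to the ends of the annotated gene.

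All 4 exons of Nes had a higher level in JXO. Exon 1 had 239.7 in JXO and 148 in OXJ, exon 3 had 252 and 105, and exon 4, which encodes most of the protein, had 381 and 166. Exon 2 had 71.6 and 36.2 as annotated, but this mean joined a part shared with the longest transcript, at 210.2 and 105, to an extension of 275 bases found in another transcript, at 8.64 and 4.84. The extension was near the level of the introns, at 5.93 (4.97 to 7.03) in JXO and 3.72 (3.01 to 4.55) in OXJ. The intron signal thus came to a small part of the exon signal in both libraries, although it covered 100% and 96.7% of the intron bases.

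The ratio of Nes was not even along the transcript. It was 0.23 (0.13 to 0.34) in exon 1, 0.52 (0.20 to 0.85) in exon 2, 0.79 (0.37 to 1.24) in exon 3 and 0.73 (0.69 to 0.78) in exon 4. Within exon 4 it was 1.0 (0.92 to 1.09) in the first kb, 1.05 in the second, 0.66 in the third, 0.40 in the fourth and 0.30 (0.19 to 0.41) in the fifth. The intervals of the first kb and the fifth did not overlap. The level in the second kb was 508 in JXO and 178 in OXJ, against 232 and 137 in the fifth kb. The level thus differed more along the last exon in JXO than in OXJ.

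In 63 bins of 100 exon bases the ratio of Nes lay between 0.07 and 1.31 and was above 0 in 63 of 63. The counting intervals of a part of these bins reached below 0, as in the bin of lowest ratio (-0.26 to 0.38). It was above 1 in 12 bins, which all began between 4943 and 6143 bases from the start of the gene. The GC content of these bins had a median of 46%, against 58% in the other bins. The median ratio was 1.02 in 18 bins under 50% GC, 0.45 in 26 bins of 50 to 60% and 0.27 in 19 bins of 60% or more. Spearman's rho of GC and ratio over the 63 bins was -0.75 and Pearson's r -0.75, as a description, since neighbouring bins share reads and all bins share the same 2 libraries. The shape of the signal was otherwise alike, with a rho of 0.84 between the levels in JXO and in OXJ.

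**Figure D3:**
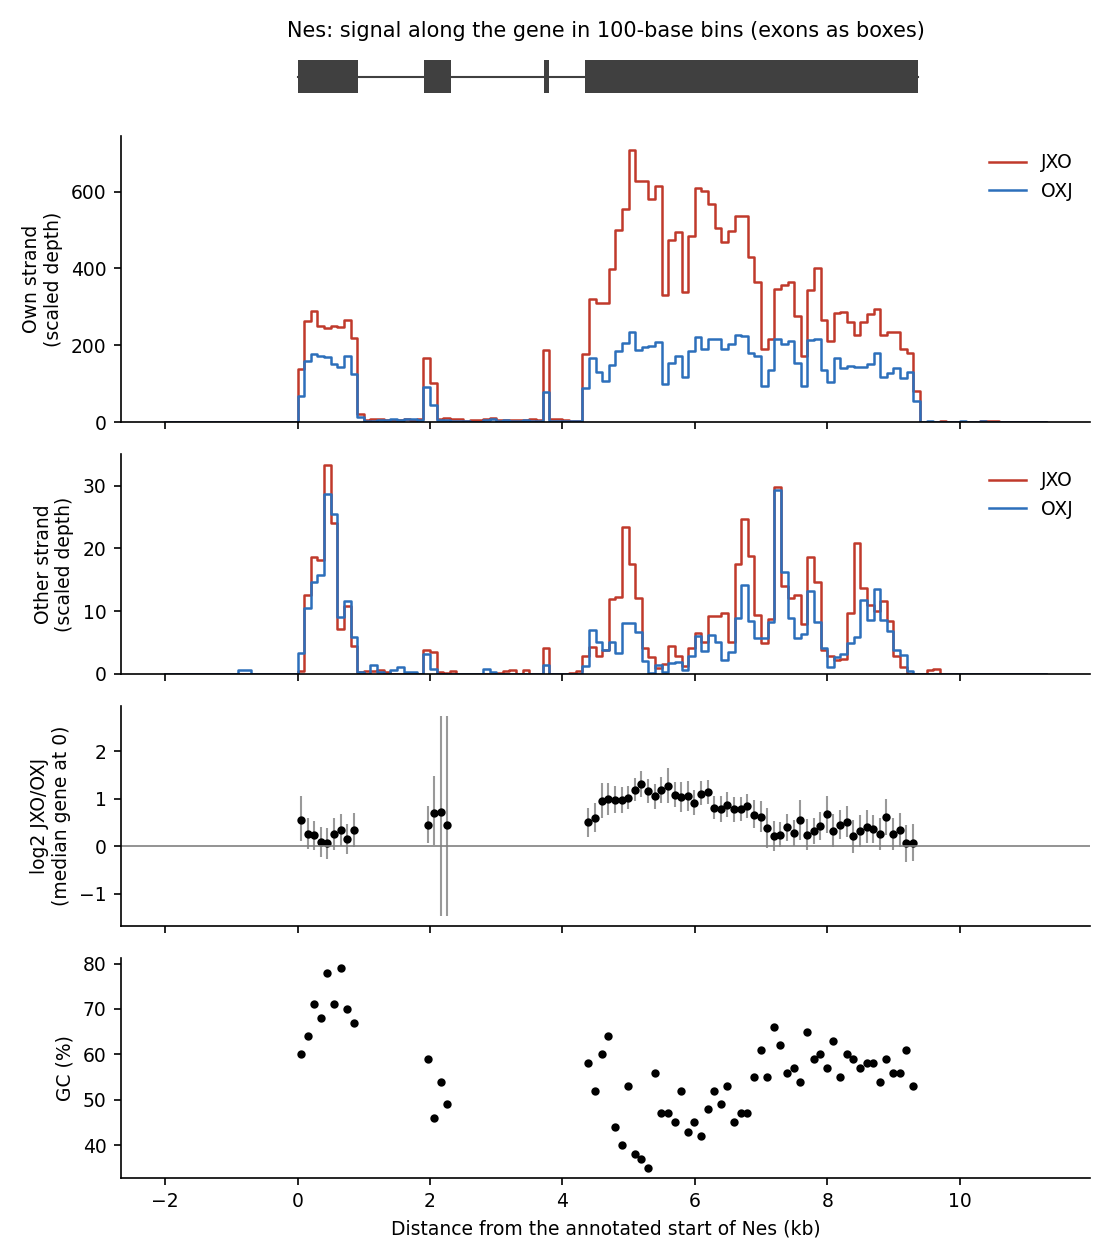
Nes in 100-base bins by distance from its start (kb), from top to bottom: exons, own-strand level and other-strand level in JXO (red) and OXJ (blue), log2 ratio with 95% counting intervals, and GC content of exon bins. The ratio is above 0 in 63 of 63 exon bins and above 1 in 12 bins of the last exon, whose median GC is 46%. The intervals of a part of the exon bins reach below 0.

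Across genes the ratio was also lower at higher GC. Over 521 protein-coding genes with at least 200 reads, Spearman's rho between exon GC and ratio was -0.41, a value across genes of the same 2 libraries. Their median ratio was 0.31 below 45% GC, 0.12 at 45 to 50%, -0.02 at 50 to 55% and -0.10 at 55% or more. The exons of Nes had a GC content of 55.3%, those of Sox2 52.1% and those of Sox9 49.3%. Beside the median of genes within 3 points of its GC, Nes was higher by 0.78 (248 genes, of which 7 had a higher ratio than Nes), Sox2 stood at -0.37 (239 genes) and Sox9 at -0.72 (220 genes). The signs of all 3 ratios were as before this comparison, and the part of GC in them was not tested further.

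**Figure D4:**
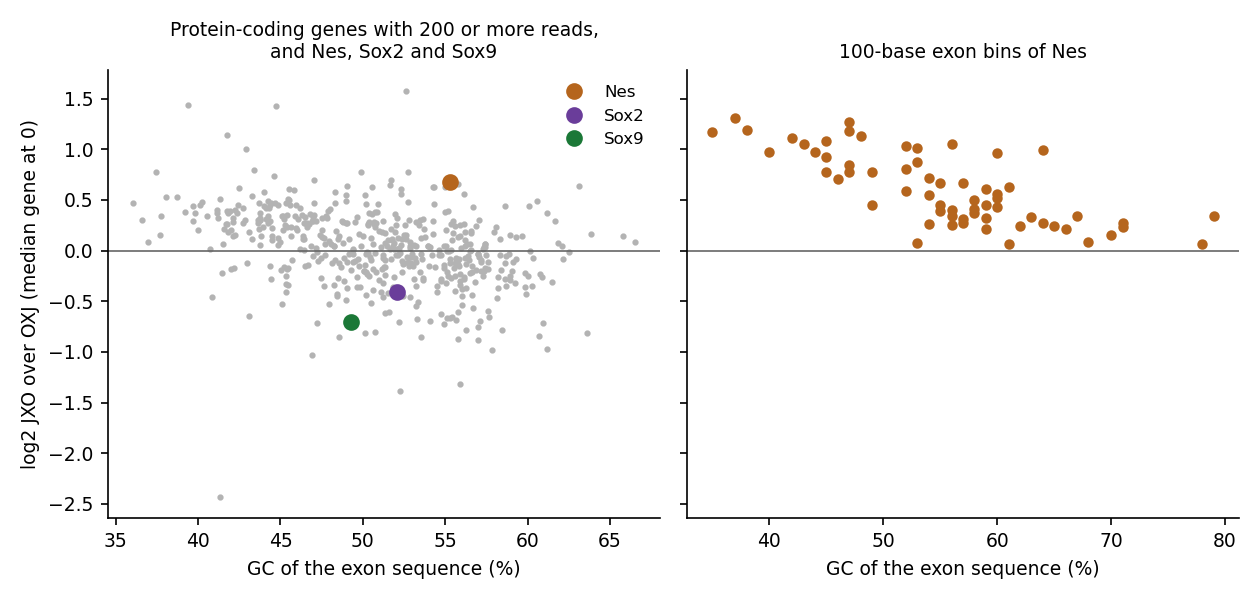
Log2 ratio of JXO over OXJ (median gene at 0) against GC content (%). The left panel shows 521 genes with at least 200 reads, and the right panel the 63 exon bins of Nes. In colour on the left are Nes, Sox2 and Sox9, of which Sox2, with 99.9 reads, is not among the 521. The ratio was lower at higher GC in both panels, and Nes lies above most genes of its GC.

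The repeat of Nes printed above coincided with a dip. An annotated transcript of Nes has an intron of 132 bases there (87780503 to 87780634), which begins with GT, ends with AG and equals 44 codons, and 98.5% of its bases match the 132 bases that follow. The level over these bases was 339 in JXO, against 599.8 just before and 536 just after it, and 101 in OXJ, against 205 and 182. This is 59.6% of the mean of the adjoining bases in JXO and 52.0% in OXJ, and the lowest base in the dip still held 335 reads in JXO and 118 in OXJ. The tracks do not hold junctions between exons, reads of the copies could be placed on either one, and the part of splicing and of the repeat in the dip was not tested. Of 123 pieces of 100 bases cut every 50 bases from the exons of Nes, 4 matched more than 1 site of mm9 at 98 or more bases, all of them inside this repeat, and of 48 pieces of Sox2 and 78 of Sox9, 0 did.

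Reads of the other strand were found over the Nes exons in both libraries. Whether they came from RNA of that strand was not tested. These reads had a level of 9.27 in JXO and 6.78 in OXJ, which is 2.65% (2.42 to 2.90) and 4.20% (3.79 to 4.63) of the signal of both strands. Their share was higher in OXJ. Over 397 genes with no annotated exon on the other strand and at least 100 reads in each library, the median share was 2.78% in JXO (10th to 90th percentile 1.22 to 5.29) and 3.58% in OXJ (1.83 to 5.86), and 304 of the 397 had a higher share in OXJ. Both shares of Nes lay within these ranges. The other-strand signal rose and fell at the same bins in both libraries (rho 0.85 over 63 bins), but followed the own-strand level less closely (rho 0.27 in JXO and 0.43 in OXJ), and no gene of the annotation lies there on that strand.

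The sequence around Nes had a far lower signal than its exons. The 2347 bases before the start that lay in the same stretch held 6.28 reads of the (+) strand in JXO and 3.13 in OXJ. The 3836 bases after the end held 25.2 and 30.0, and most of these, 19.2 and 28.2, fell in the first 2 kb, at a level of 0.63 in JXO and 0.81 in OXJ, over 51.5% and 78.7% of the bases. Over all 3836 bases the level was 0.43 in JXO and 0.45 in OXJ. The signal after the gene was thus not seen to be higher in JXO, where the gene itself was. These levels rest on few reads, and their contrast with the gene was not tested. The (-) strand held 0 reads before the gene and 2 after it in JXO, and 4 and 0 in OXJ. Farther out, where a track lists no read up to the next stretch, 0 was not taken as a measurement, and the neighbour Bcan, which encodes brevican, a proteoglycan of brain matrix, was not analysed here.

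Sox2 (chromosome 3, 34548927 to 34551383) has 1 exon of 2457 bases, of which 957 are coding. It drew 48 reads in JXO and 51.9 in OXJ, where a part read is a read that runs over the edge, and these covered 70.1% and 76.6% of its bases. Before the coding start the level was 1.27 (0.35 to 3.25) in JXO and 1.81 (0.69 to 3.85) in OXJ. Over the coding part it was 1.22 (0.55 to 2.31) in JXO and 1.28 (0.63 to 2.32) in OXJ, and after it 1.33 (0.66 to 2.37) and 0.95 (0.43 to 1.80). All these intervals overlapped, so no difference between parts of the gene or between the crosses was detectable at this depth.

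Few reads were listed beside Sox2. In JXO the 10 kb on either side were listed at 0 reads on either strand, which allows a level of up to 0.0391 if these bases were deposited. In OXJ the (+) strand held 0.13 reads before the gene, as the end of a read that crossed the start, and 2 reads after it, and the (-) strand held 2 reads before it. The exon had reads on the other strand as well, 8 in JXO and 10 in OXJ, or 14.3% (4.03 to 32.7) and 16.2% (5.45 to 33.7) of both strands. These shares were above the 90th percentile of 5.29% in JXO and 5.86% in OXJ that genes of at least 100 reads had, but the lower bounds of both intervals lay below it.

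Sox2 lies in an intron of Sox2ot, a lincRNA of the same strand, so RNA of Sox2ot that runs through Sox2 cannot be told apart from that of Sox2. Of the 19 exons of Sox2ot, 11 lay in the stretch, and they held 4 reads in JXO, a level of 0.0368, and 0 in OXJ. Over all 81850 bases of Sox2ot in the stretch, Sox2 included, there were 56 reads of its strand in JXO and 56 in OXJ. Most of the signal of this locus was thus over the exon of Sox2.

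Sox9 (chromosome 11, 112643538 to 112649074) has 3 exons of 4135 bases in all, of which 1521 are coding. Its exons drew 188 reads in JXO and 252 in OXJ, over 78.7% and 84.6% of their bases. Exon 1 had a level of 1.83 in JXO (0.92 to 3.27) and 1.21 in OXJ (0.53 to 2.35), exon 2 had 1.83 (0.45 to 4.94) and 2.90 (1.10 to 6.18), and exon 3 had 3.35 (2.65 to 4.17) and 4.17 (3.44 to 5.03). The ratio was 0.10 (-1.28 to 1.68) in exon 1, -1.10 (-3.15 to 1.2) in exon 2 and -0.77 (-1.22 to -0.35) in exon 3, and these intervals overlapped. The coding part had 1.9 in JXO and 2.25 in OXJ, with a ratio of -0.70 (-1.60 to 0.10), and the part after the coding end 3.83 and 4.86, with a ratio of -0.80 (-1.29 to -0.35).

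The highest signal of Sox9 stood at the same place in both libraries. The 200 bases of greatest depth were 112647855 to 112648054 in JXO and in OXJ, 1034 bases past the end of the coding part, in the 3′ UTR. They had a level of 16.3 in JXO and 13.5 in OXJ, with up to 39 and 35 reads at a base, and held 26.6% and 18.5% of the exon signal. Without them the level of Sox9 was 2.29 in JXO and 3.02 in OXJ, and the ratio -0.85. The log2 ratio of the last 25% over the first 25% of exon bases of Sox9 was 0.27 in JXO and 1.10 in OXJ. The median of 521 genes was 0.31 and 0.23, so by this measure Sox9 leaned to the 3′ end more than the median gene in OXJ only. For Nes these values were 0.26 and 0.25. The value of Sox9 rests on few reads, since its exon 1 held 22.3 in JXO and 16.5 in OXJ.

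**Figure D5:**
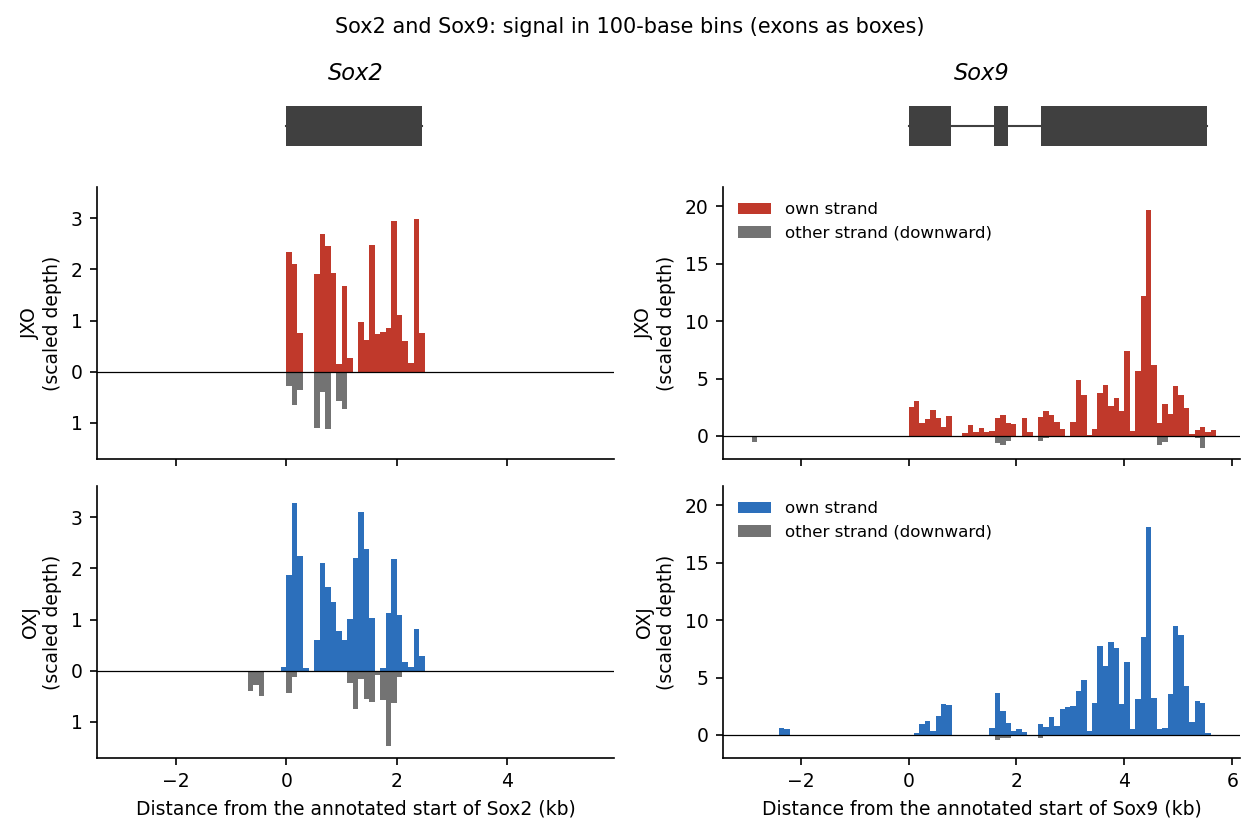
Sox2 (left) and Sox9 (right) in 100-base bins by distance from the start (kb), JXO above OXJ, with exons as boxes, own-strand level as upward bars and other-strand level as downward grey bars (scaled depth). The own-strand bars of Sox2 begin and end within 100 bases of its exon, and in OXJ a few other-strand bars lie before it. The own-strand bars of Sox9 are tallest in the last exon of both libraries, where the 200 deepest bases had 16.3 in JXO and 13.5 in OXJ.

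Introns of Sox9 held 9 reads in JXO and 2 in OXJ, at levels of 0.42 (0.13 to 1.02) and 0.08 (0.002 to 0.46). The other strand of the exons held 8 reads in JXO, or 4.08% of both strands, and 2 in OXJ, or 0.79%. Upstream, 10 kb held 3 reads of the (-) strand in JXO and 2 of the (+) strand in OXJ. The lincRNA BC006965 starts 248 bases from Sox9 and runs away from it on the (-) strand, and the 18676 bases of it in the stretch held 4 reads in JXO and 0 in OXJ, with 0 over its exons there in either library. The stretch ended 230 bases after Sox9, and Gm11681, farther downstream, was not analysed here.

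Lists of related genes were set beside the 3 genes. Of the listed genes, Sox1, Map2 and Tfap2a were not found in the annotation, so their place was not looked up. They are kept in the list sizes below. Of the 6 genes of the SoxB1 and SoxE groups, Sox2 and Sox9 were wholly inside the stretches, and of 12 other Sox genes only Sox18, a factor of vessel endothelium, was, with 0 reads in JXO and 1 in OXJ. Of 14 intermediate filament genes, Nes and Prph were inside. Prph encodes peripherin, a filament of peripheral neurons, and had 0.84 in JXO and 0.26 in OXJ, with a ratio of 0.90 from 24.0 and 8.51 reads. Of 17 neural progenitor genes, Nes and Sox2 were inside, and 0 of 10 neuron and glia genes, 0 of 8 neural crest and Schwann cell genes, 0 of 10 skeletal muscle genes, 0 of 8 endothelial genes and 0 of 18 neighbours of the 3 genes were. Whether such cells were present in the cultures was therefore not tested.

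Of 10 pluripotency genes 6 lay inside the stretches and 3 had at least 10 reads. Besides Sox2 these were Klf4, a zinc finger factor, at 17.8 in JXO and 21.3 in OXJ (ratio -0.73), and Myc, a factor of cell growth, at 102 and 73.5 (ratio 0.00). Pou5f1, the octamer factor of pluripotent cells, and Zfp42 had 0 reads over exons in both libraries, where 0 and a gap in the deposited signal cannot be told apart, and Fgf4, a growth factor gene, had 0 in JXO and 2 in OXJ. Vim, which encodes vimentin and is strongly expressed by fibroblasts, was also listed at 0 reads in both libraries over the 23.3% of its exon bases inside a stretch, so a 0 here does not show low expression.

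Cartilage genes were measured for Sox9. Of 18 genes, Sox9 and Col2a1 lay inside. Col2a1, the fibrillar collagen of cartilage and a known target of Sox9, had a level of 423 in JXO and 361 in OXJ, above Nes in both libraries, and its ratio was -0.23. Of 14 fibroblast genes 3 were measured, and the fibroblast label of the cells was not tested with them. Col1a2, a chain of type I collagen, had 583 in JXO and 388 in OXJ (ratio 0.12), Dcn, which encodes decorin, 22.9 and 25.9 (ratio -0.64), and Lum, which encodes lumican, 18.9 and 15.5 (ratio -0.18). Their summed level was 625 in JXO and 429 in OXJ. Of the measured list genes, which include Nes, Sox2 and Sox9, 0 lay past 2-fold, where 5.38% of all genes did. The measured list genes are too few for this 0 to differ from that share. The part of other cell types in the levels of Nes, Sox2 and Sox9 was not tested.

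Genes with at least 90% of their exon bases inside were looked at after the data were seen. Notch1, a receptor that holds neural progenitors undifferentiated, had 5.50 in JXO and 6.23 in OXJ (ratio -0.64). Olig2, a factor of oligodendrocyte progenitors, had 0.62 and 0.17 (ratio 0.95), and Nanog, a factor of pluripotent cells, 0.58 and 0.31 (ratio 0.27). All 3 were below the median gene in both libraries.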

How the data were processed

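RNA of JXO and OXJ MEFs was sequenced, with 1 library per cross, as 100-base paired reads of ribosomal RNA-depleted, dUTP-stranded libraries. Per the labels and the submitters' processing notes, CASAVA 1.9 and TopHat 1.2.0 were used, with mm9; reads could be placed at more than 1 locus. The authors deposited 4 tracks with the log2 of 1 plus a per-base read depth, which they had scaled to 50000000 aligned reads per library.

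Depth was recovered from the log2 values as 2 to their power minus 1, which gave whole reads, and a stretch was a run of covered bases with no gap above 50 kb. The tracks named forward held (-) strand RNA, judged from protein-coding genes. Exons were the union of GENCODE M1 transcripts on mm9, and sequence came from the mm9 genome (22 of 22 chromosome lengths equal). Ratios used a pseudocount of 0.1 scaled depth and genes with at least 10 reads in both libraries together. Intervals were exact (95%, Poisson for levels, conditional binomial for ratios, Clopper-Pearson for shares), on pairs of 200 bases, and PCR copies were not separated here, so they cover counting error only. The stretches hold only part of the genome, and beyond them 0 was not taken as a measurement; a gap inside a stretch was read as 0, although it may not have been deposited.

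The genes named were Nes, Sox2 and Sox9, the annotated genes within 10 kb of them, of each of 12 gene lists the 4 measured genes of highest level and any Sox gene, and the 3 genes nearest in level to each, of which 1 is not reported here. The genes and lists were chosen with earlier results of these data known. Alternatives changed the scaling between libraries, the exon bases used, the summary over bases, a floor of 2 reads, the pseudocount and the filter on low values; those for GC, for level, for the deepest 200 bases of Sox9 and for genes with 90% of exon bases inside, and the other listed genes with 0 to 2 reads, were chosen after seeing the data. The ratio and its interval were tested on simulated counts that held counting error only. That test could not cover PCR copies or other error in the deposited data. Python 3.11.15, numpy 2.4.6, pandas 2.3.3, scipy 1.17.1, pysam 0.24.0, matplotlib 3.10.9 and BLAST 2.17.0 were used.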

Additional observations from a re-analysis of the deposited data

How the results depend on the processing

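The log2 ratio of Nes, 0.67, stayed above 0 under all alternatives. It was 1.14 in the values as deposited, the only setting that put it past 2-fold, 0.95 with equal totals of the deposited signal, 0.75 over coding exons, 0.72 over the whole gene, 0.77 from the mean of the deposited log2 values, 0.51 from the median over 100-base bins and 0.75 with a pseudocount of 1. Chosen after seeing the data, it was 0.78 beside genes of like GC and 0.47 beside genes of like level. The ratio of Sox9, -0.71, was -0.24 as deposited and stayed below 0 and inside its interval elsewhere. That of Sox2, -0.41, stayed inside its interval throughout, and its sign turned in the values as deposited (0.05). Measured as a share of covered bases, which does not count depth, the own strand of Nes held 51.8% in JXO and 52.4% in OXJ in place of 97.3% and 95.8%, and that of Sox9 84.2% and 94.6% in place of 95.9% and 99.2%; with bases under 2 reads set to 0 that of Sox9 in OXJ was 100%. The count of 37 genes past 2-fold (10 higher and 27 lower in JXO) was 62 as deposited (53 higher and 9 lower), 8 with a pseudocount of 1 (4 and 4), 63 with no filter (22 and 41) and 11 with at least 100 reads (4 and 7); equal totals gave 41 (26 and 15). No paired analysis was possible because there was 1 library per cross and no test between crosses.

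The levels of Sox2 and Sox9 rest on few reads, which limits any statement on them to large differences. The part of the genome in the tracks leaves most listed genes out, and reads of either parental allele were not separated here.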
